A study of Rattus norvegicus with 9 samples.

Results

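A set of 10 genes that defines the endothelial cell, the cell that lines blood vessels, was followed through RNA sequencing of rat knee cartilage. The genes were Pecam1, Cdh5, Tek, Tie1, Emcn, Esam, Egfl7, Kdr, Vwf, and Eng, selected by name from the deposited gene table. The table listed 32043 genes, of which 13898 had enough expression to be tested, and all 10 endothelial genes were among those tested. No threshold was used, but the set was chosen by someone who already knew results of these same libraries. The values of the 10 genes are therefore given as a description. No p-value is printed for any of them, and counts of how many passed a threshold describe these libraries and test nothing. All 9 libraries came from male Sprague-Dawley rats bought at 8 weeks of age, and the tissue was collected 8 weeks after surgery. Control rats (3 libraries) had the capsule of the joint opened and closed with sutures, and nothing else. In the model group (3 libraries) knee osteoarthritis was induced by the modified Hulth method, that is, by cutting out the medial collateral and anterior cruciate ligaments, taking out the medial meniscus, and making the rats exercise daily. The SYD group (3 libraries) had the same surgery and then received the extract of Shengyu decoction, a herbal formula, by gavage for 4 weeks. This group is named by its sample titles (syd), whereas its columns in the gene table are headed CXTB. The paper also has a positive control arm, which it abbreviates CXB. The labels carry no dose, and the paper's Results name the high dose (SYD-H) for sequencing while its Methods name only control and model tissue.

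Endothelial cells are joined to one another by adhesion molecules of the cadherin and immunoglobulin families, and they grow and survive through receptor kinases that bind VEGF and the angiopoietins. Healthy articular cartilage holds no vessels, whereas the bone and marrow beneath it are dense with them. In osteoarthritis, vessels are known to grow from the subchondral bone across the tidemark into the calcified cartilage. In bulk tissue such as this, more or fewer endothelial cells and more or less RNA per cell cannot be told apart.

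The labelled tissue was checked against marker genes. All 16 chondrocyte genes on a fixed list were read in each control library, and their summed level ran from 514 to 12308 FPKM in the control group, 207 to 965 in the model group, and 189 to 1648 in the SYD group. Genes of marrow and bone were abundant in the same libraries, with 6589 to 16380 FPKM summed over 9 erythroid genes and 1060 to 1586 over 9 osteoblast genes in the control group. RNA extraction is described in the labels as starting from retina, but 8 photoreceptor genes summed to at most 3.5 FPKM in any library. Recovered reads numbered 14914121 to 19510537 per library, while the share on the 37 mitochondrial genes ran from 4.05% to 4.86% in the control group, 39.5% to 90.7% in the model group, and 23.7% to 72.7% in the SYD group. Reads on all other genes were therefore as few as 1744769 in model library 1 and 3611325 in model library 3, against 11106680 in model library 2. The authors' library sizes, which lay between 0.193 and 2.18 times the recovered reads, set the remaining genes on a common scale, and FPKM here are on that scale. A gene was called when its unadjusted p was under 0.05 and its log2 fold change was over 1 in size, which are the study's criteria. Over all tested genes, 493 were called higher and 1553 lower in model against control, 503 and 74 in SYD against model, and 1007 and 1282 in SYD against control. The first split became 38 and 10407 with TPM and 944 and 1094 with quantile normalization, the second 329 and 211 with quantile normalization, and the third 128 and 5901 with TPM.

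Endothelial genes are commonly controlled by transcription factors of the ETS family, which bind a GGAA core. Promoter windows of 300 bases, from 250 before to 50 after the start, were found in RefSeq (assembly GRCr8) for 5 of the 10 genes, namely Emcn, Egfl7, Eng, Tie1, and Kdr. The motifs AGGAAG and CGGAAG were searched on both strands, and 4 of these 5 genes had at least 1 match. Of 33469 rat promoter windows of this length, 45.5% held at least 1 match and 14.9% held 2 or more, so a match is frequent and marks no binding site by itself. The windows shown were picked by the expression values that follow, and are those of the pair that was highest relative to control in the SYD group among the genes with a window (Emcn and Egfl7) and of the receptor genes that differed least (Tie1 and Kdr). Capitals mark either motif or its reverse complement, and each window is written 5′ to 3′ on the gene's own strand.
Emcn, chr2:228564289-228564588, plus strand: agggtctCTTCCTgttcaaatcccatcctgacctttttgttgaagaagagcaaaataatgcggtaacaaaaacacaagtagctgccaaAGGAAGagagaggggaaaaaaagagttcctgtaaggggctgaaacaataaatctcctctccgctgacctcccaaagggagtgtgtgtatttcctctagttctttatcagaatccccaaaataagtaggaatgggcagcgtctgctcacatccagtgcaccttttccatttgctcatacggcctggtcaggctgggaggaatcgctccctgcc
Egfl7, chr3:29805381-29805680, plus strand, the first of its starts: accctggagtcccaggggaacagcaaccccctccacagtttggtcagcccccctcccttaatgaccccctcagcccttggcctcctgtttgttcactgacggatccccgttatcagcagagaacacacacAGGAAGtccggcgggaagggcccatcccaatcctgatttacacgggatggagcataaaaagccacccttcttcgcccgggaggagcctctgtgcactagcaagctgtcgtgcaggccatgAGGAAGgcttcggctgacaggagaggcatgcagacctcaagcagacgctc
Tie1, chr5:137304932-137305231, minus strand: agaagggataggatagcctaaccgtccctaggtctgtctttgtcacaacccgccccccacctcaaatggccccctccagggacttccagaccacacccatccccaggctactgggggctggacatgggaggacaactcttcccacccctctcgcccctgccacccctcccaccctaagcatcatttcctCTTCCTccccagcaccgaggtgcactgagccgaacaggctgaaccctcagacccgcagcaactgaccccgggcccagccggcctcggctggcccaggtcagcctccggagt
Kdr, chr14:32571813-32572112, plus strand: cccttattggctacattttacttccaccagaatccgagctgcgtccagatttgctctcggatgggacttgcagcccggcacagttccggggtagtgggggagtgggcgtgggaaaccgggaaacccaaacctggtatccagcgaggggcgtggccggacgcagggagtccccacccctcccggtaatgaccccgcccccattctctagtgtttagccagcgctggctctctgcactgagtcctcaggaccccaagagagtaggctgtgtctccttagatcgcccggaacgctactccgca
The Emcn and Egfl7 windows held 2 matches each, the Tie1 window held 1, and the Kdr window held 0. Only AGGAAG and CGGAAG were counted. GGAA cores in other settings are left unmarked, and the Kdr window holds such cores. The other start of Egfl7 had 0 matches and the Eng window had 2. Positions of the genes themselves are those of the authors' table, whose rat build is not given in the sources used here and differs from GRCr8.

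The junction and surface molecules came first. Pecam1 (chr10:91590521-91652116) encodes PECAM-1, or CD31, an adhesion molecule at endothelial contacts that platelets and leukocytes also carry. It measured 10.7, 7.13, and 7.98 FPKM in control libraries 1 to 3. In model libraries 1 to 3 it measured 0, 70.9, and 17.0, and in SYD libraries 1 to 3 it measured 28.2, 40.3, and 31.1. Values of the other genes follow the same order. Every SYD library lay above every control library, whereas the model libraries fell on both sides of all the others. The SYD mean was 33.2 ± 6.31 (SD, n = 3) against 8.61 ± 1.87 (SD, n = 3) in the control group, a ratio of 3.85. Cdh5 (chr19:815411-854368), which encodes VE-cadherin of the adherens junction, measured 7.42, 4.17, and 6.03 FPKM in the control group, 2.80, 35.6, and 3.66 in the model group, and 13.8, 19.0, and 16.8 in the SYD group. Here too the SYD and control libraries did not overlap, and model library 2 was the highest of the 9. Esam (chr8:37238287-37249215), an immunoglobulin-like adhesion molecule of tight junctions that is also found on platelets, measured 6.44, 4.44, and 4.64 FPKM in the control group, 0, 43.2, and 16.5 in the model group, and 20.0, 22.4, and 18.5 in the SYD group. Its 3 SYD libraries spanned a narrow range that lay above all control libraries. The ratio of SYD to control means was 2.82 for Cdh5 and 3.93 for Esam.

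Endomucin and EGFL7 stood apart from the other genes, since all 3 of their model libraries lay above the control libraries. Emcn (chr2:225891100-225970929) encodes endomucin, a sialomucin on capillary and venous endothelium, and in bone its protein marks, together with CD31, the capillaries near bone-forming cells. Emcn measured 6.64, 5.15, and 6.09 FPKM in the control group, 16.6, 51.9, and 12.3 in the model group, and 21.2, 26.5, and 23.5 in the SYD group. The SYD libraries lay above all control libraries too. Egfl7 (chr3:9407520-9416879), a protein that endothelial cells secrete into the matrix around forming vessels, measured 3.51, 2.64, and 3.56 FPKM in the control group, 7.27, 16.4, and 25.3 in the model group, and 15.5, 15.2, and 22.3 in the SYD group. Again no operated library reached down to the control range. In model library 1 these values rested on 88 reads of Emcn and 116 reads of Egfl7. The mean of Egfl7 was 3.24 ± 0.514 in the control group, 16.3 ± 9.03 in the model group, and 17.7 ± 4.02 in the SYD group (SD, n = 3 each), so its SYD mean was 5.46 times the control mean, the highest ratio of the 10 genes. For Emcn the means were 5.96 ± 0.751, 26.9 ± 21.8, and 23.7 ± 2.64 (SD, n = 3 each), and the ratio of SYD to control was 3.98.

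The receptors did not behave as one. Tek (chr5:109607077-109733804) encodes TIE2, the receptor kinase for the angiopoietins, and measured 3.90, 2.94, and 3.45 FPKM in the control group, 0, 20.7, and 3.68 in the model group, and 9.48, 11.8, and 10.4 in the SYD group. Its SYD mean of 10.6 ± 1.17 was 3.08 times the control mean of 3.43 ± 0.480 (SD, n = 3 each), with no overlap. Tie1 (chr5:132000015-132019592), the partner receptor of TIE2, was the most abundant of the 10 in the control group, at 12.6, 9.96, and 10.7 FPKM. It measured 0, 18.8, and 9.45 in the model group and 14.5, 21.1, and 11.9 in the SYD group, so that SYD library 3 lay inside the control range and the ratio of means was 1.43. Kdr (chr14:32217871-32261018) encodes VEGFR2, the main signaling receptor for VEGF-A. It measured 4.07, 3.57, and 4.0 FPKM in the control group, 0, 8.09, and 2.01 in the model group, and 4.89, 5.74, and 3.16 in the SYD group. The SYD and control libraries of Kdr overlapped, with a ratio of means of 1.18. Eng (chr3:15934518-15973230) encodes endoglin, a coreceptor for BMP9 and TGF-β that some stromal cells and macrophages also carry. It measured 12.9, 7.96, and 11.3 FPKM in the control group, 5.84, 38.7, and 10.8 in the model group, and 17.0, 24.1, and 20.5 in the SYD group. Its SYD libraries lay above the control libraries, although the ratio of 1.92 was smaller than that of Tek.

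Vwf (chr4:158360152-158491539) encodes von Willebrand factor, the clotting protein stored by endothelial cells and by megakaryocytes and platelets. It measured 6.27, 6.49, and 3.91 FPKM in the control group, 0.424, 12.7, and 2.69 in the model group, and 2.16, 7.52, and 3.93 in the SYD group. The 3 groups overlapped throughout, and Vwf was the only one of the 10 genes whose SYD mean (4.54 ± 2.73, SD, n = 3) lay below its control mean (5.56 ± 1.43, SD, n = 3). Of the 11 tested megakaryocyte and platelet genes, 8 were called lower in SYD against control, 6 of them with an adjusted p under 0.05 (limma), where 9.22% of all tested genes were called lower and 9.57% had an adjusted p under 0.05 and were lower. Without control library 3, 7 were called and 0 had an adjusted p under 0.05. The most abundant were Pf4 (-1.56, SE 0.79), Ppbp (-4.31, SE 0.67), and Itgb3 (-1.18, SE 0.26), of which Ppbp and Itgb3 passed. Their list summed to 155 to 422 FPKM in the control group, 16.2 to 172 in the model group, and 37.1 to 108 in the SYD group. The part of these cells in the level of Vwf was not tested.

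**Figure D1:**
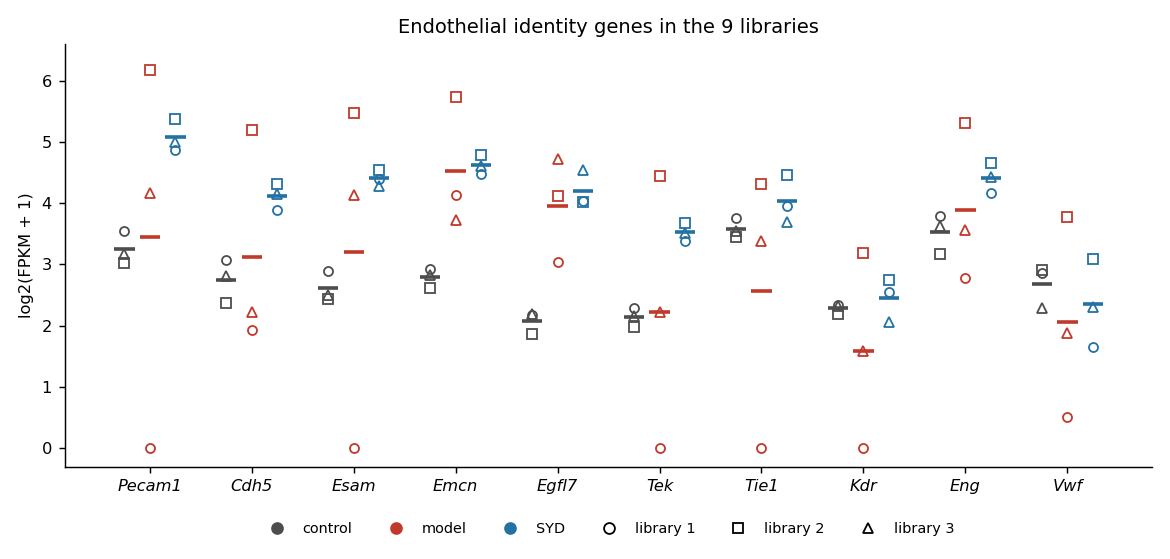
Level of each of the 10 endothelial genes as log2(FPKM + 1) in the 3 control, 3 model, and 3 SYD libraries, where symbols stand for libraries 1 to 3 and short bars for group means of the log2 values. The SYD libraries lie close together above the control libraries for 7 genes, whereas the model libraries range from 0 FPKM (library 1, 5 genes) to the highest of all 9 libraries (library 2, 8 genes).

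Ranked by mean FPKM, the control group read Tie1, Eng, Pecam1, Emcn, Cdh5, Vwf, Esam, Kdr, Tek, and Egfl7. Only the steps from Pecam1 to Emcn and from Esam to Kdr exceeded the larger SD of the genes on either side. In the SYD group the order was Pecam1, Emcn, Eng, Esam, Egfl7, Cdh5, Tie1, Tek, Kdr, and Vwf, and only the steps from Pecam1 to Emcn, from Tie1 to Tek, and from Tek to Kdr exceeded that SD. In the model group the order was Pecam1, Emcn, Esam, Eng, Egfl7, Cdh5, Tie1, Tek, Vwf, and Kdr, and no step did.

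The sum of the 10 genes summarized the libraries. It was 74.4, 54.5, and 61.6 FPKM in the control group, 32.9, 317, and 103 in the model group, and 147, 194, and 162 in the SYD group. The model group thus held both the lowest and the highest library, and the 3 SYD libraries sat between model libraries 3 and 2. Scaled to 1e+06 reads on genes outside the mitochondrial ones, the summed reads were 656, 552, and 575 in the control group, 194, 2721, and 691 in the model group, and 1123, 1607, and 1312 in the SYD group, with the 9 libraries in the same order. These sums rested on 338 reads in model library 1 and 2494 in model library 3, against 30225 in model library 2 and 6764 to 20477 across the control and SYD libraries. In model library 1, Pecam1, Tek, Tie1, Esam, and Kdr had 0 reads, and the 3 reads that a count of 0 allows would equal 0.206, 0.177, 0.216, 0.457, and 0.117 FPKM, respectively. These limits cover counting error only and lie below every control value of the same gene.

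The first comparison asked how the SYD group differed from tissue that had only had the sham procedure. On the log2(FPKM + 1) scale, Egfl7 was higher by 2.13 (SE 0.20), Pecam1 by 1.83 (SE 0.21), Emcn by 1.83 (SE 0.15), Esam by 1.80 (SE 0.17), Tek by 1.39 (SE 0.16), Cdh5 by 1.37 (SE 0.23), and Eng by 0.89 (SE 0.22). The differences were 0.45 (SE 0.23) for Tie1, 0.17 (SE 0.22) for Kdr, and -0.34 (SE 0.40) for Vwf. Thus the junction molecules, TIE2, endomucin, and EGFL7 were higher by more than 1, whereas the VEGF receptor, TIE1, and von Willebrand factor lay within about 2 SE of 0. By the study's criteria 6 of the 10 were called higher, where 7.25% of all tested genes were called higher, and 0 were called lower, where 9.22% of all genes were. With an adjusted p under 0.05 (limma, Benjamini-Hochberg over all tested genes) 7 were higher, where 7.75% of all genes were. All 3 SYD libraries lay above all 3 control libraries for 7, where this held for 20.3% of all genes. The median log2 fold change was 1.38 over the 10 genes and 0.00 over all tested genes. Fitting all 9 libraries at once, so that the spread of the model group entered the error, left 2 of the 10 called higher. In that fit 5.19% of all genes were called higher, and 1 of the 10 had an adjusted p under 0.05. At an adjusted p under 0.05, 55 of the 13898 tested genes were higher in that fit. Leaving out control library 3 left 3 of the 10 with an adjusted p under 0.05, where 55 of the 13898 tested genes were higher. With values rescaled to TPM, in which mitochondrial genes share the total, 1 of the 10 was called, and that was Vwf, lower by 1.80, where 42.5% of all genes were called lower. TPM moved the median of all genes to -1.31, and 9 of the 10 genes still lay above that median.

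**Figure D2:**
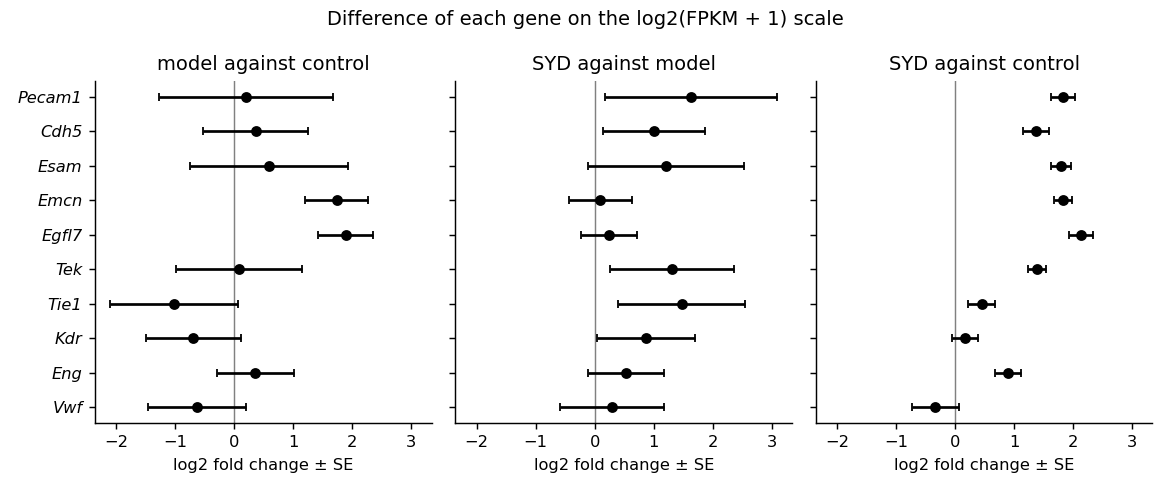
Log2 fold change of each of the 10 genes on the log2(FPKM + 1) scale (points) with its SE (bars) in model against control, SYD against model, and SYD against control. Bars are short in SYD against control, where 7 genes lie between 0.89 and 2.13, and long in both comparisons with the model group, whose SE reach 1.48.

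The second comparison set the model group against the control group. Egfl7 was higher by 1.89 (SE 0.47) and Emcn by 1.74 (SE 0.54), and these were the 2 genes called higher, where 3.55% of all tested genes were. For 0 of the 10 was a call made in the lower direction, where 11.2% of all genes were called lower. These calls depended on the scaling. With TPM all 10 differences were negative, 0 genes were called higher and 3 lower (Tie1 at -3.31, Vwf at -2.85, and Kdr at -2.70), where 74.9% of all genes were called lower, and the median of all genes was -2.60. The other 8 genes had differences from -1.02 (SE 1.08, Tie1) to 0.59 (SE 1.35, Esam), each smaller than its own SE. Their size and sign moved with the method. With voom on recovered reads, Cdh5 was 1.79 and was called as well, and Pecam1 was 1.93, whereas with a pseudocount of 0.1 Pecam1 was -0.79, Esam -0.32, and Tie1 -2.08. At an adjusted p under 0.05 (limma), 0 of the 10 passed, where 0.237% of all genes were higher. An unadjusted p under 0.05 was reached by 2 of the 10. With TPM 1 of the 10 passed, in the lower direction, where 9641 of the 13898 tested genes were lower and passed. In other fits 1 of the 10 also passed, with the genes passing in either direction given in parentheses. These fits were voom on recovered reads (391 of the 13898), all 9 libraries in one fit (634), without model library 1 (793), and without model library 2 (2621). The 3 model libraries lay above the 3 control libraries for Emcn and Egfl7, a pattern shared by 8.65% of all genes. The median difference of the 10 genes was 0.28, and that of all tested genes was -0.23. These medians were 1.19 and -0.50 with voom and -0.56 and -0.54 with a pseudocount of 0.1, so the set did not keep a direction.

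Leaving out model library 1 or model library 2 moved these values. Model library 2 was the highest of the 9 libraries for 8 of the 10 genes, and model library 1 was the lowest for 8. Without model library 2, 2 genes had a positive difference and 4 were called, Emcn (1.14) and Egfl7 (1.81) higher, where 5.66% of all genes were, and Kdr and Vwf lower (both -1.49), where 18.4% of all genes were. Without model library 1, all 10 differences were positive and 4 were called higher, namely Esam (2.19), Egfl7 (2.34), Emcn (1.93), and Pecam1 (1.92), where 7.14% of all genes were. Model library 2 also had the smallest mitochondrial share of its group (39.5%) and the fewest marrow transcripts. Its erythroid genes summed to 296 FPKM against 38237 and 42480 in the other model libraries, its neutrophil genes to 81.4 against 8034 and 2017, and its platelet genes to 16.2 against 172 and 129. Its mural cell genes summed to 462 FPKM against 30.2 and 196. The part of these differences in the endothelial values was not tested.

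The third comparison, SYD against model, addressed the treatment. The differences ranged from 0.09 (SE 0.53) for Emcn to 1.63 (SE 1.45) for Pecam1, and all 10 were positive. With voom on recovered reads 6 of the 10 were positive, from -0.97 (Vwf) to 1.72 (Kdr), so the direction rested on the method. Tie1 was next at 1.47 (SE 1.08), followed by Tek at 1.31 (SE 1.05), Esam at 1.21 (SE 1.32), and Cdh5 at 1.01 (SE 0.86). None exceeded 2 SE, and 0 of the 10 were called in either direction, where 3.62% of all tested genes were called higher and 0.532% lower. For 0 of the 10 did all SYD libraries lie above all model libraries, where 7.89% of all genes did. An adjusted p under 0.05 (limma) was reached by 0% of all genes, with 731 at an unadjusted p under 0.05 and 0 of them among the 10, and voom on recovered reads also gave 0. The median difference was 0.94 over the 10 genes and 0.22 over all genes, but 0.03 and 0.36 with voom, which turned their order. Without model library 2, 4 genes were called higher (Cdh5 by 2.05, Tek by 2.41, Kdr by 1.66, and Eng by 1.25), where 13.8% of all genes were, and without model library 1 only 4 of the 10 differences were positive. Each group's libraries enter a pair of these comparisons, so the comparisons are not independent of each other.

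The composition of the endothelial signal within a library does not depend on how libraries are scaled to one another. Each gene was therefore also expressed as a share of the summed FPKM of the 10 genes, a measure chosen after seeing the data and given with no test. Tie1 made up 16.9%, 18.3%, and 17.3% of the sum in control libraries 1 to 3, against 9.86%, 10.9%, and 7.37% in SYD libraries 1 to 3. Kdr was 6.18% ± 0.609 in the control group and 2.75% ± 0.714 in the SYD group, Vwf 8.89% ± 2.82 and 2.59% ± 1.22, and Eng 16.8% ± 1.92 and 12.2% ± 0.571 (SD, n = 3 each). The share was larger in the SYD group for Pecam1, at 13.5% ± 0.796 and 19.7% ± 0.932, Emcn, at 9.42% ± 0.489 and 14.2% ± 0.463, Esam, at 8.11% ± 0.565 and 12.2% ± 1.26, and Egfl7, at 5.11% ± 0.579 and 10.7% ± 2.96 (SD, n = 3 each). For Tek it was 5.41% ± 0.179 and 6.33% ± 0.201. For Cdh5 it was 9.13% ± 1.29 and 9.86% ± 0.481. Shares sum to 100%, so they are not independent of each other, and a smaller share is not a lower level. Eng, Tie1, and Kdr had smaller shares in the SYD group although their mean FPKM were higher there. In the model group, library 2 held 22.4% Pecam1, 16.4% Emcn, and 5.93% Tie1, outside the ranges of the SYD libraries, and its Egfl7 share of 5.17% lay within the control range. In model library 1, Emcn alone took 50.4%.

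**Figure D3:**
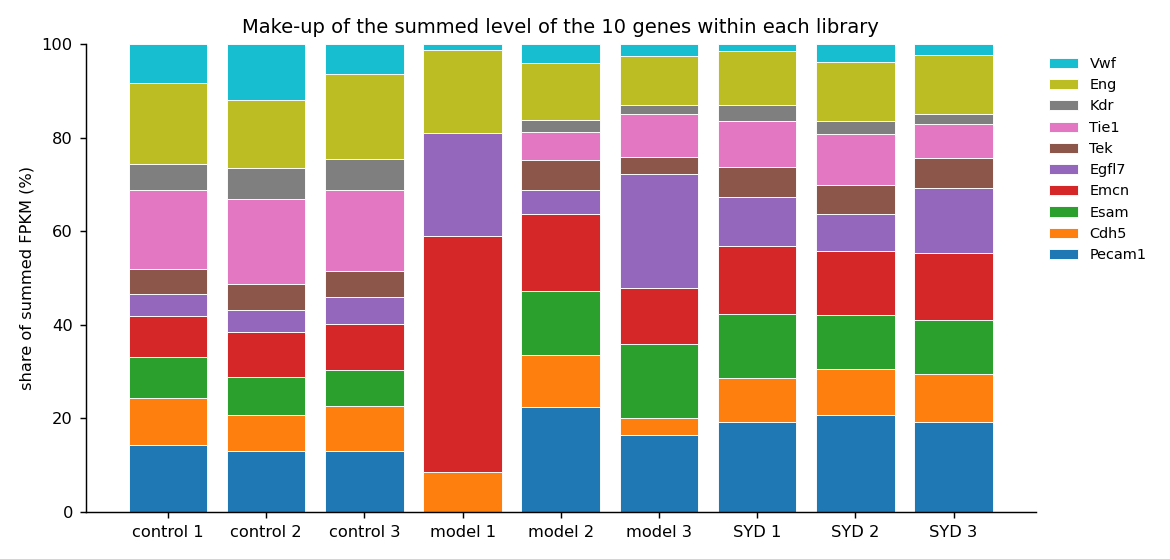
Share of each gene in the summed FPKM of the 10 endothelial genes, in percent, for each of the 9 libraries, with colors standing for genes. Control libraries hold more Tie1, Kdr, Vwf, and Eng, and SYD libraries more Pecam1, Emcn, Esam, and Egfl7, while model library 1 holds only the 5 genes with reads.

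Other genes of the endothelium were read from fixed lists. Of 60 further endothelial genes in 5 lists, 56 were tested. In SYD against control, 25 were called higher and 3 lower, 22 had an adjusted p under 0.05 and rose, 0 had one and fell, and the median log2 fold change was 0.97. The adjusted calls rested on the fit, with 4 of the 56 left without control library 3, 12 without control library 2, 14 without control library 1, and 0 with all 9 libraries in one fit, while 23, 21, 25, and 14 were called higher in these fits, in that order. With TPM 0 were called higher and 10 lower, and the median was -0.26, against -1.31 over all genes. Lower at an adjusted p under 0.05 (limma) were 5 with TPM and 2 without SYD library 3, against 2594 and 1830 of the 13898 tested genes. There was 1 without the filter, with a minimum mean FPKM of 1, equal sums outside mitochondrial genes, quantile normalization, or voom. Stab2, which the main filter left untested, measured 0.924, 1.24, and 1.54 FPKM in the control group. It measured 0.0811, 0.0363, and 0.260 in the SYD group. Over all tested genes, 1077 were higher at an adjusted p under 0.05, and 55 without control library 3, 199 without control library 2, and 55 with all 9 libraries. The single genes named in the following paragraphs with an adjusted p are from the fit of 6 libraries. In model against control, 3 were called higher and 0 lower, and in SYD against model 2 and 1, with 0 at an adjusted p under 0.05 in either (limma). Single libraries and the scaling changed these counts. In model against control they were 17 and 2 without model library 1, where 7.14% of all genes were higher. Without model library 2 they were 4 and 8 (all genes 5.66% and 18.4%), and with TPM 0 and 18 (74.9% lower). In SYD against model they were 16 and 1 without model library 2, where 13.8% of all genes were higher. The lists were written with earlier results of these libraries known, and they are read only against the shares of all genes given above.

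Among junction and surface molecules, 8 of 13 tested genes rose in SYD against control with an adjusted p under 0.05. Adgrl4, an adhesion receptor of sprouting endothelium, measured 1.68, 1.22, and 1.98 FPKM in the control group and 11.2, 13.2, and 14.3 in the SYD group, which is 2.41 higher on the log2 scale (SE 0.18, adjusted p = 0.00573, limma). Plvap, which forms the diaphragms of fenestrated capillaries, measured 17.3, 8.05, and 12.6 FPKM in the control group and 33.8, 36.4, and 45.4 in the SYD group (1.58, SE 0.28, adjusted p = 0.0202, limma). The others were Mcam (2.19), Ecscr (2.13), Clec14a (1.73), Cd93 (1.70), S1pr1 (1.55), and Ptprb (1.19), the last a phosphatase that acts on TIE2 and VE-cadherin. Of 8 tested receptors, 1 passed, namely Acvrl1, the BMP9 receptor that works with endoglin (1.51, SE 0.29, adjusted p = 0.0237, limma), a share near that of all genes. The more abundant neuropilins, coreceptors for VEGF and semaphorins, differed by 0.82 (SE 0.23, Nrp2) and -0.06 (SE 0.30, Nrp1), and Flt1, the decoy VEGF receptor, by 0.84 (SE 0.26). How receptors differed from junction molecules was not tested.

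Of 15 tested transcription factors, 4 rose with an adjusted p under 0.05 (limma). Sox17 (2.33), Sox18 (1.54), and Hey1 (1.45) act in arterial or general vessel specification, and Ets2 (0.61) belongs to the ETS family. The abundant Ets1 and Klf4 differed by -0.32 (SE 0.17) and 0.98 (SE 0.30). The 3 genes called lower on this list, Tal1 (-2.38), Hhex (-1.05), and Tcf15 (-1.16), were 0 at an adjusted p under 0.05. Tal1 is shared with erythroid cells and megakaryocytes, and it measured 21.1, 55.1, and 27.6 FPKM in the control group and 2.38, 4.07, and 13.7 in the SYD group. On the arterial, venous, and lymphatic list, 6 of 12 tested genes were called higher and 4 of them had an adjusted p under 0.05. These 4 were Gja4 (2.10), a connexin, the Notch ligand Dll4 (1.94), Gja5 (1.44), and Notch4 (1.39). Called without passing the adjustment were the venous factor Nr2f2 (1.07, SE 0.34) and the lymphatic and macrophage receptor Lyve1 (1.34, SE 0.48), whereas the arterial ligand Efnb2 differed by 0.18 (SE 0.81). Ackr1 of venules (-1.54, SE 0.83) and the venous receptor Ephb4 (0.42, SE 0.29), the most abundant genes of the list, were not called. Dll4 measured 0.968, 0.425, and 0.821 FPKM in the control group and 4.27, 7.55, and 5.36 in the SYD group. Of 8 enzymes and cytoskeletal regulators, 5 rose, namely Nos3 (1.99), the endothelial nitric oxide synthase, Ace (1.80), Rhoj (1.74), Arhgef15 (1.46), and Rasip1 (1.36). The most abundant of them, the water channel Aqp1 (-0.29, SE 0.26) and the fatty acid binding protein Fabp4 (1.56, SE 0.54), did not pass.

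Ligands of the receptors were read too. Vegfa, the ligand of KDR, measured 8.66, 2.84, and 6.32 FPKM in the control group, 14.1, 16.1, and 22.8 in the model group, and 43.3, 14.5, and 24.1 in the SYD group. All operated libraries lay above the control libraries, and Vegfa rose in SYD against control by 2.0 on the log2 scale (SE 0.50, adjusted p = 0.0460, limma). Pgf, the ligand of FLT1, rose by 1.78 (SE 0.30, adjusted p = 0.0185, limma) and Angpt2, a context-dependent ligand of TIE2, by 1.29 (SE 0.32, adjusted p = 0.0439, limma) in the same comparison. These 3 were the only ones of 9 tested ligands to pass, and 0 passed when any 1 of the control libraries was left out. Tgfb1, the most abundant ligand on the list, measured 54.4 ± 4.43 FPKM in the control group and 58.4 ± 10.2 in the SYD group (SD, n = 3 each). Tgfb3 differed by 1.34 (SE 0.57) and did not pass. In model against control, 2 ligands were called higher, Vegfa (1.5) and Vegfb (1.46), with 0 at an adjusted p under 0.05. With TPM 0 ligands were called higher and 3 lower, where 74.9% of all genes were called lower. Without model library 3, 4 ligands were called higher, where 510 of the 13898 tested genes were.

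**Figure D4:**
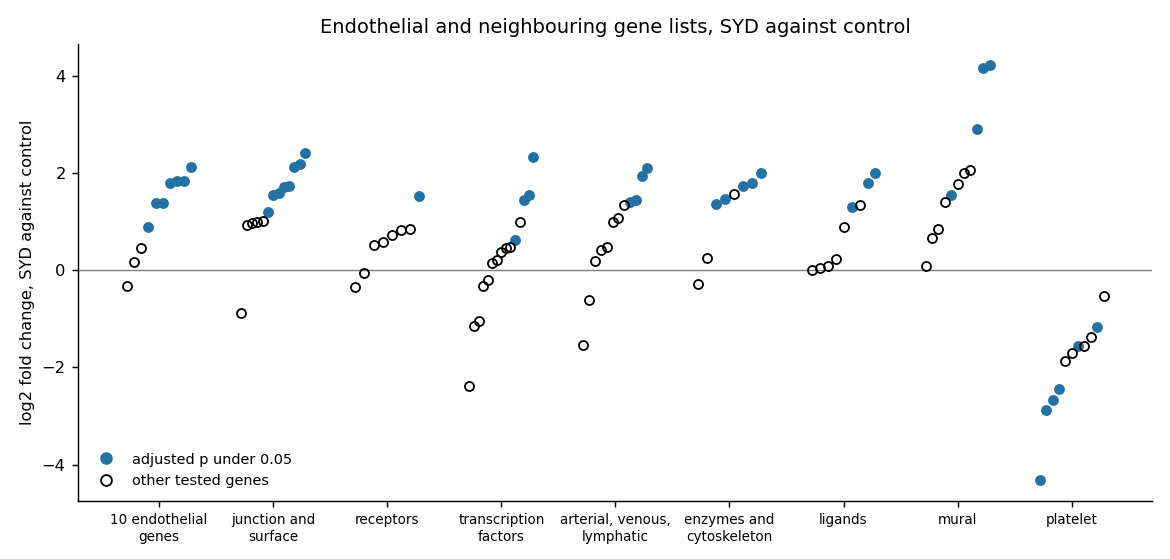
Log2 fold change in SYD against control of every tested gene (points) of the 10 endothelial genes, 5 further endothelial lists, ligands, mural cells, and platelets, with filled points for an adjusted p under 0.05 (limma). Most endothelial points lie above 0, mural points reach 4.22, and platelet points lie below 0.

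Other cells moved along with the endothelial genes. Mural cells, the pericytes and smooth muscle around vessels, had 8 of 11 tested genes called higher in SYD against control and 4 with an adjusted p under 0.05 (5 and 0 without control library 3). These counts were 5 and 1 with all 9 libraries in one fit, and 2 and 0 with TPM. Called higher over the 13898 tested genes were 722 and 128 in these fits, in that order. Acta2, smooth muscle actin, measured 7.13, 1.93, and 2.52 FPKM in the control group and 76.4, 160, and 42.6 in the SYD group (4.22, SE 0.59, adjusted p = 0.0126, limma). Tagln, which encodes transgelin of smooth muscle, rose by 4.15 (SE 0.54, adjusted p = 0.0107, limma), and Rgs5 of pericytes differed by 1.99 (SE 0.72, adjusted p = 0.113, limma). The mural list summed to 30.2 to 88.0 FPKM in the control group, 30.2 to 462 in the model group, and 182 to 619 in the SYD group. The osteoclast list, with 6 of 7 called higher, summed to 452 to 801 and 1740 to 2284 FPKM in the control and SYD groups, and the osteoblast list, with 2 of 9 called higher and 1 lower, to 1060 to 1586 and 2641 to 3948. In the opposite direction, the B cell list summed to 308 to 401 and 23.2 to 57.1 FPKM, with 7 of 9 genes called lower. The neutrophil list (9 of 11 called lower) summed to 3238 to 6137 and 563 to 3459 FPKM, and the erythroid list (6 of 9 called lower) to 6589 to 16380 and 1313 to 13592 FPKM. Macrophage genes summed to 147 to 195 and 175 to 335 FPKM, and the chondrocyte genes overlapped, with 1 of 16 called lower. Synovial fibroblast, adipocyte, and skeletal muscle lists overlapped between the control and SYD groups in their sums. The sums of the mural and osteoclast lists were thus higher, and those of the B cell and platelet lists lower, in all SYD than in all control libraries, with or without each list's most abundant gene. The osteoblast sum rested on Bglap (osteocalcin), without which it was 242 to 651 in the control and 388 to 2042 in the SYD libraries, and the groups overlapped. The part of these cells in the endothelial values was not tested.

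**Figure D5:**
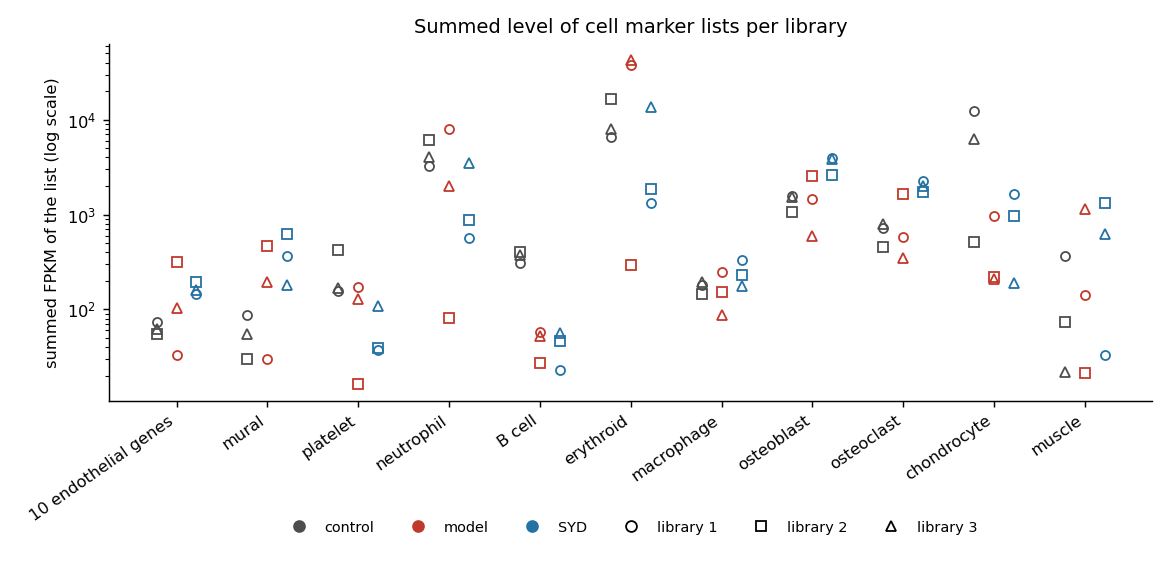
Summed FPKM of the 10 endothelial genes and of marker lists of other cell types in each library, on a log scale, with colors for groups and symbols for libraries 1 to 3. Endothelial, mural, and osteoclast sums of the SYD libraries lie above those of the control libraries, B cell and platelet sums lie below, and model library 2 is the lowest of the 9 in the platelet, neutrophil, and erythroid lists.

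Genes whose profile was most like that of the endothelial set were found by the mean absolute difference, over the 9 libraries, between a gene's centered log2(FPKM + 1) and the median of the 10 genes centered in the same way. The nearest of the 13888 tested genes outside the set were Sulf1 (0.13), Ptprb (0.15), Fzd4 (0.16), Fgd5 (0.16), and Adcy4 (0.17), against a median of 0.91 over all of them. Sulf1 encodes a sulfatase of heparan sulfate, Fzd4 a Wnt and norrin receptor, Fgd5 a Cdc42 regulator, and Adcy4 an adenylyl cyclase. Within the set, Tek was nearest to the median profile (0.19) and Egfl7 farthest (0.81). The 9 libraries share a range of mitochondrial shares and depths, so these distances describe the libraries only.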

How the data were processed

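RNA was sequenced from knee cartilage in 9 libraries, 3 per group by the sample labels. The values the authors deposited are FPKM per gene, that is, fragments relative to gene length and library size. The submitters' processing notes name HISAT2 2.0.5 and hg38, a human build, although the genes are of rat. The counter, annotation release, and rat build are not given in the sources used here. Per-sample columns left unused numbered 0. FPKM times gene length gave whole multiples of one step per library (tolerance 0.1) for 100% of values, from which reads were recovered, 14914121 to 19510537 per library.

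Groups were compared in pairs with limma 3.58.1 (R 4.3.3, lmFit and eBayes with a trend, two-sided) on log2(FPKM + 1), over the 13898 genes whose FPKM averaged 0.5 or more, and adjusted by Benjamini-Hochberg. Fold changes on this scale understate those of low genes. The fit was tested on simulated data. Nothing says that libraries came from separate animals, so p-values measure the spread between libraries. The members and lists were chosen with earlier results of these data known. Named were all 10 genes and, of other lists, the 3 with the highest mean FPKM, genes with an adjusted p under 0.05 (endothelial and ligand lists), and the 5 nearest profiles. Single genes of the other blood, bone, and joint lists are not named, only sums and counts. Hhex, Tcf15, Vegfb, Flt1, Nr2f2, Lyve1, Stab2, and Efnb2, and which of the named genes outside the set to show by library, were picked after their values were seen. Alternatives were a pseudocount of 0.1, no filter, a minimum mean FPKM of 1, TPM, equal sums outside mitochondrial genes, quantile normalization, 1 fit of 9 libraries, voom on recovered reads, a replicate block, and leaving out each library. Python 3.11.15, pandas 2.3.3, and matplotlib 3.10.9 were used.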

Additional observations from a re-analysis of the deposited data

How the results depend on the processing

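The 7 genes higher in SYD against control (Pecam1, Cdh5, Tek, Emcn, Esam, Egfl7, and Eng) kept a positive difference, between 0.71 and 2.42, under all 14 alternatives other than TPM. Some of these alternatives cannot change a fold change, and they left it at 0.89 to 2.13. They are no filter, a minimum mean FPKM of 1, all 9 libraries in one fit, and the replicate block. The 7 were picked by their adjusted p in this same comparison. Under TPM, Cdh5 (-0.019) and Eng (-0.58) of these 7 turned negative, where the median of all genes was -1.31. In model against control all 10 genes were negative under TPM, from -3.31 to -0.81, Emcn (-1.15) and Egfl7 (-0.81) included, where the median was -2.60, and 3 were called, all lower. Of the 10 genes, 1 was called in SYD against control with TPM and 2 with all 9 libraries in one fit, and leaving out single libraries gave 6 to 7. In model against control, 1 was called with equal sums outside mitochondrial genes and 1 to 4 without single libraries. In SYD against model, 0 to 4 were called without single libraries. With model library 2 as the only model library, the differences against control ran from 0.72 to 2.93. Their median was 2.17, and that of all genes was -0.01. In SYD against model they ran from -1.42 to 0.08, with a median of -0.98 against 0.01 over all genes. That library was chosen after seeing the data and is the highest of the 9 for 8 genes, so these differences only describe it. Genes called in all numbered 2046 in model against control (TPM 10445, voom 3117, model library 2 alone 3302, without single libraries 1309 to 3344). They numbered 577 in SYD against model (all 9 libraries 1220, voom 1032, model library 2 alone 356, without single libraries 315 to 2495) and 2289 in SYD against control (TPM 6029, without single libraries 1788 to 2603). The causes were not tested. Deviations from the group mean correlated at -0.27 to 0.19 for equal replicate numbers and at -0.31 to 0.26 for unequal ones. With 3 libraries per group the deviations sum to 0 within a group, so these values cannot decide whether equal numbers pair the libraries. With the replicate block 6 of the 10 genes stayed called in SYD against control, 2 in model against control, and 0 in SYD against model, but 0 of all genes had an adjusted p under 0.05 in SYD against control, against 2407 without it, and so had 0 of the 56 further endothelial genes, against 22. Depth limits model libraries 1 and 3, where the 10 genes had 338 and 2494 reads.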
